A study of Mus musculus with 8 samples.

Results

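The genes described here are 35 integrins and leukocyte adhesion genes of mouse macrophages, taken by name from a list of known adhesion genes and all found among the 55357 genes of the deposited table. They comprise 11 integrin α subunits, 6 integrin β subunits, 8 adhesion proteins of the immunoglobulin superfamily and the junctional adhesion molecules (JAM), 1 selectin ligand, 5 adaptors that link integrins to actin, and 3 tetraspanins with CD47. Their RNA was measured in bone marrow-derived macrophages (BMDM) that received sphingosine d18:1, written So(d18:1), a long-chain sphingoid base, and in BMDM that received its solvent. The marrow came from the femur and tibia of wild-type C57BL/6J mice and was grown with macrophage colony-stimulating factor. The 4 So(d18:1) libraries came from BMDM exposed to 2 μM So(d18:1) in methanol for 6 h, and the 4 control libraries from BMDM given methanol for 6 h. The sample labels name no inflammatory stimulus, while the paper describes So(d18:1) or vehicle as given under inflammatory stimulation, so whether both groups shared a stimulus is not settled by the labels. The study calls the 4 samples of a group biologically independent, and no source used here ties a library to its own mouse, so the p-values measure the spread between libraries, which may be partly technical.

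Integrins are receptors made of 1 α and 1 β subunit. A leukocyte integrin rests in a bent form and is switched on from inside the cell, when talin and kindlin bind the tail of its β subunit, after which it holds fibronectin, laminin or other matrix proteins, or proteins of the immunoglobulin superfamily on other cells. Macrophages use the β2 integrins, such as LFA-1 and Mac-1, to crawl on vessel walls and to take up opsonised particles, and the β1 and αv integrins to grip matrix and apoptotic cells.

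Of the 35 genes, 32 had enough counts to be tested, and 8 (22.9% of the 35) passed an adjusted p of 0.05 in edgeR's quasi-likelihood test. Jaml, Itgb7, Cd81 and Itgam were higher with So(d18:1), and Itgb3, Itga9, Itga6 and Itgal were lower. Apart from Jaml, the 8 genes changed by 1.14-fold to 1.54-fold. Among all 14514 genes tested, 8.94% passed the same threshold, 3.87% higher and 5.07% lower. These shares are of tested genes only, while the 22.9% also counts the untested ones. The difference between these shares and those of the 35 genes was not tested. The 35 genes were also chosen with earlier results of these data known. The 32 log2 fold changes had a median of 0.023, beside 0.0036 over all tested genes, with 20 above 0 and 12 below. By the threshold in the study's methods (1.5-fold or more at an unadjusted p under 0.05), 3 of the genes passed, Jaml higher and Itgb3 and Vcam1 lower, beside 3.89% of all tested genes (1.41% higher and 2.48% lower). The libraries held 17748397 to 26088609 counts, and levels are given as CPM, the count relative to a TMM-scaled library total. Where a pair of levels is given, control comes first and So(d18:1) second, and ± is the SD of the 4 libraries (n = 4). In RNA from a whole culture, fewer cells that express a gene and less of its RNA per cell cannot be told apart.

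**Figure D1:**
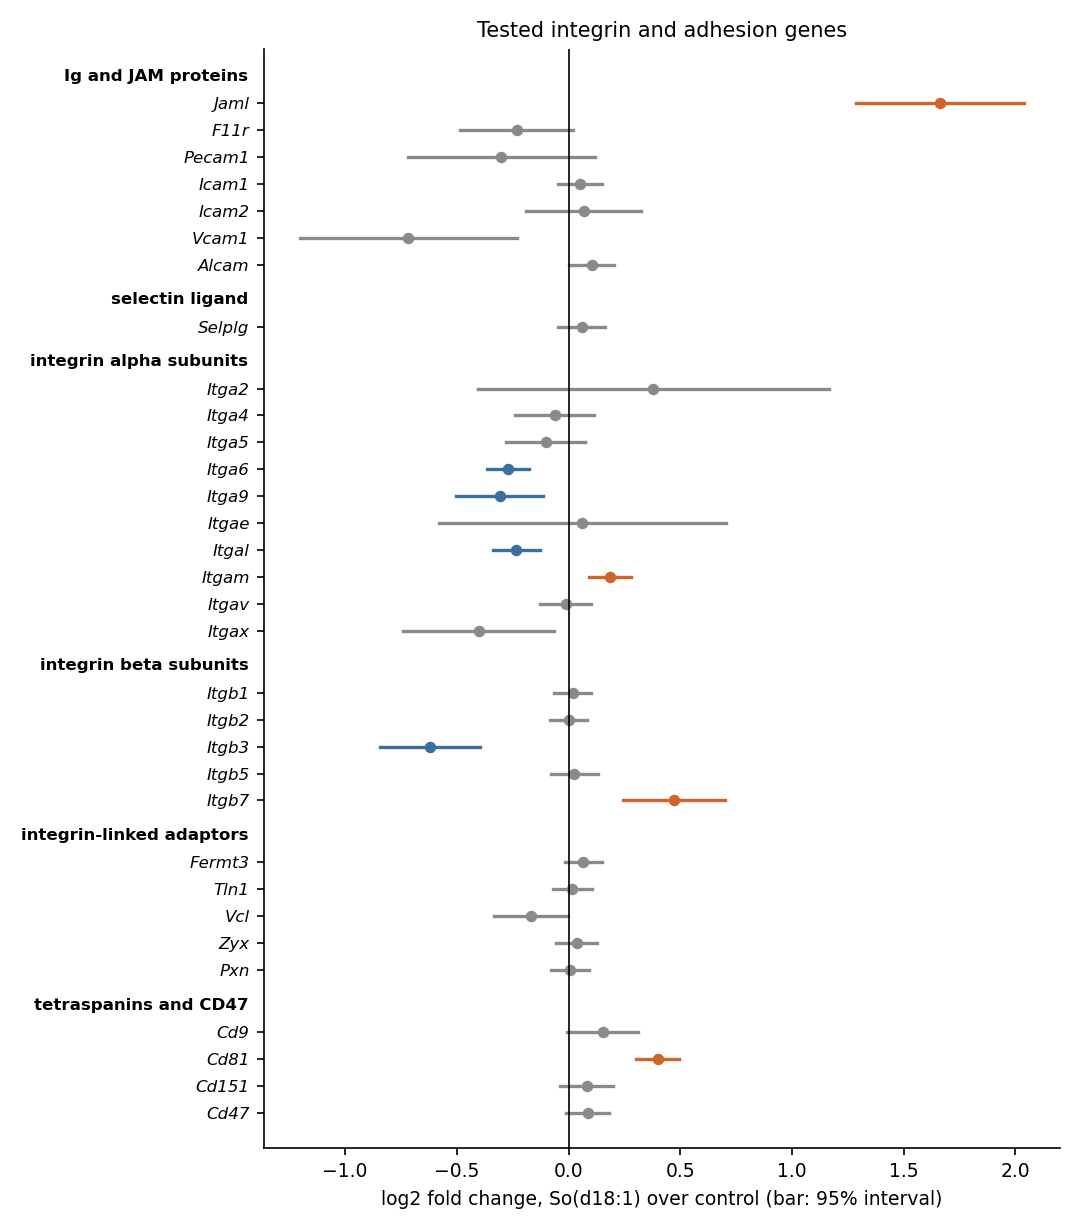
Log2 fold change of the 32 tested genes, So(d18:1) over control, in their 6 role groups, with the 95% interval as a bar. Orange marks genes that passed an adjusted p of 0.05 and were higher, blue those that passed and were lower, and grey the others; Jaml at 1.66 lies far to the right of the remaining genes, which sit between -0.72 and 0.47.

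Adhesion proteins of the immunoglobulin superfamily are the counter-receptors of leukocyte integrins or bind each other between cells. Of the 8 genes, 7 were tested, and only Jaml passed, with a rise. JAML, the junctional adhesion molecule-like protein, is found on leukocytes and binds CXADR on epithelial cells. Jaml (ENSMUSG00000048534, chr9:45079183-45108534, GRCm38, plus strand) was counted at 1.20, 1.15, 1.22 and 0.990 CPM in control libraries 1 to 4 and at 3.42, 3.89, 3.59 and 3.57 CPM in So(d18:1) libraries 1 to 4. Every So(d18:1) library lay above every control library by a wide margin. The log2 fold change was 1.66 (SE 0.18, adjusted p = 2.75e-06, edgeR's quasi-likelihood test), a 3.16-fold rise with a 95% interval of 1.29 to 2.04 on the log2 scale. The rise stood on few reads, with raw counts of 25, 29, 29 and 24 in the control and 61, 86, 69 and 92 in the So(d18:1) libraries. Of its exonic bases, 12.8% lie opposite the gene Gm10684, which was itself at 0 to 0.112 CPM, and since no source names a strand setting the reads of the 2 genes in that stretch cannot be told apart.

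The sequences before the start sites of Jaml, Itgam and Cd81 are printed here. These 3 genes passed the test, rose without overlap between the groups and have a RefSeq start at or beside the start in the gene annotation. Each run is the 250 bases before the start in RefSeq (GRCm38.p6), 5′ to 3′ on the strand of the gene. Capitals mark matches, on either strand, to the hypoxia response element core (ACGTG or GCGTG), the AP-1 motif (TGANTCA) or the PU.1 core (GAGGAA, which reads TTCCTC on the other strand).
Jaml (chr9:45078933-45079182, plus strand): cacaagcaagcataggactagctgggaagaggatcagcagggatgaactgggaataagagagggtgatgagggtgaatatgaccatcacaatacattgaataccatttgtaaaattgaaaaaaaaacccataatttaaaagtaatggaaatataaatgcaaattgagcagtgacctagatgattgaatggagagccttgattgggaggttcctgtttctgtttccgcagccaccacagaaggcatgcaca
Itgam (chr7:128062390-128062639, plus strand): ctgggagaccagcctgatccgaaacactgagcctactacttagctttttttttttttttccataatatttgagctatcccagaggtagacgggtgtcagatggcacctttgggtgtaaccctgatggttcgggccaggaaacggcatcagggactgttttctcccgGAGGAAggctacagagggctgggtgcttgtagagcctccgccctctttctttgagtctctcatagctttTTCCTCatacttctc
Cd81 (chr7:143052500-143052749, plus strand): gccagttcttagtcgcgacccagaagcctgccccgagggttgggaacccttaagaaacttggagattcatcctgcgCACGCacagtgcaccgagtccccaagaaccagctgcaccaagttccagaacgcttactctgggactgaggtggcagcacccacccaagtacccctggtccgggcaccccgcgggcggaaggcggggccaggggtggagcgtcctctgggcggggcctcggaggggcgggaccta
The Jaml window held none of the 3 motifs, the Itgam window held 2 PU.1 cores that do not overlap, and the Cd81 window held 1 hypoxia response element core on the minus strand. The windows of Itga9 and Itgb7, which also passed, are not printed. That of Itga9 lies inside the gene as annotated and held hypoxia response element cores, and that of Itgb7 held none of the motifs. Over 32817 mouse promoter windows of this length, 38.6% held a hypoxia response element core, 6.75% the AP-1 motif and 23.3% the PU.1 core. Of 27 windows found for 24 of the 35 genes, 11 (40.7%), 3 (11.1%) and 8 (29.6%) held them, and a match of these letters is a description and not a site.

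VCAM1 is the counter-receptor of integrins α4β1 and α9β1. Vcam1 (ENSMUSG00000027962, chr3:116109949-116129688, minus strand) was counted at 47.2, 41.5, 74.8 and 60.3 CPM in control libraries 1 to 4 and at 35.2, 29.5, 34.2 and 37.4 CPM in So(d18:1) libraries 1 to 4. The groups did not overlap (two-sided exact permutation test, p = 0.0286, the smallest 4 against 4 can give), but the control libraries spread widely, with 3 and 4 above 1 and 2. The log2 fold change of -0.72 (SE 0.20, adjusted p = 0.0865, edgeR's quasi-likelihood test) passed the threshold of the study's methods and not the adjusted one. Without control replicate 2 it was -0.84 with an adjusted p of 0.0316, and in the other 7 fits with 1 library left out it did not pass (edgeR's quasi-likelihood test). It passed the Wald test of DESeq2 (adjusted p = 0.00722), edgeR's likelihood ratio test (adjusted p = 0.00552) and the fit with the replicate block (adjusted p = 0.00137).

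The other tested genes of this family did not pass. ICAM1 and ICAM2 are ligands of LFA-1, and Icam1 was at 95.8 ± 3.09 and 99.1 ± 4.98 CPM, with a log2 fold change of 0.05 (interval -0.048 to 0.15). Icam2, at 6.95 ± 0.345 and 7.27 ± 1.25 CPM, had a log2 fold change of 0.067 (interval -0.19 to 0.32). Alcam, which encodes a ligand of CD6, was at 99.1 ± 4.59 and 106 ± 4.93 CPM and changed by 0.10 (interval 0.0039 to 0.20) on the log2 scale. F11r and Pecam1 encode proteins of endothelial and leukocyte junctions. F11r (JAM-A) was at 7.41 ± 0.553 and 6.31 ± 0.905 CPM with a log2 fold change of -0.23 (interval -0.48 to 0.021), and Pecam1 at 16.3 ± 3.56 and 13.2 ± 2.55 CPM with one of -0.30 (interval -0.72 to 0.12). Pecam1 passed with no filter on low counts (adjusted p = 0.0476) and with the replicate number as a block (adjusted p = 0.0282), both in edgeR's quasi-likelihood test. It passed in none of the 8 fits with 1 library left out, where adjusted p ran from 0.114 to 0.622, the latter without control replicate 3 at a log2 fold change of -0.17. Esam, an adhesion protein of endothelial cells and platelets, was under the count filter, with 3, 11, 5 and 4 reads in the control and 5, 9, 5 and 8 in the So(d18:1) libraries. The selectin ligand Selplg, which encodes the P-selectin ligand that leukocytes roll on, was at 163 ± 7.63 and 169 ± 11.6 CPM, a log2 fold change of 0.059 (interval -0.047 to 0.16).

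The α subunits set what an integrin binds. Of 11 genes, 10 were tested, Itgam rose, and Itga6, Itgal and Itga9 fell; the median of the 10 log2 fold changes was -0.082. Itgal and Itgam, which encode the α chains of LFA-1 and Mac-1 and pair with the same β2 subunit, passed in opposite directions.

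Itgam (CD11b; ENSMUSG00000030786, chr7:128062640-128118491, plus strand) is a standard surface marker of myeloid cells. Its control libraries 1 to 4 held 431, 443, 398 and 409 CPM and its So(d18:1) libraries 1 to 4 held 462, 501, 466 and 483 CPM. All So(d18:1) values were above all control values, by a margin that was small next to the level. The log2 fold change was 0.18 (SE 0.045, adjusted p = 0.0119, edgeR's quasi-likelihood test), and leaving out So(d18:1) replicate 2 ended the call (adjusted p = 0.0556, edgeR's quasi-likelihood test). The annotation places Gm49368 on the same strand over 68.7% of the exonic bases of Itgam, and 66.3% of the 50-base words of its transcripts also occur in that gene, which was counted at 0 to 0.362 CPM. How reads that match both were assigned is not given in the sources used here, so the level of Itgam is uncertain.

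Itgal (CD11a; ENSMUSG00000030830, chr7:127296260-127335138, plus strand) encodes the α chain of LFA-1, the receptor of ICAM proteins. It was counted at 758, 765, 787 and 796 CPM in control libraries 1 to 4 and at 683, 586, 706 and 667 CPM in So(d18:1) libraries 1 to 4. The control libraries lay close together and above all So(d18:1) libraries, of which replicate 2 was the lowest. Its log2 fold change was -0.23 (SE 0.05, adjusted p = 0.00475, edgeR's quasi-likelihood test), and the call held in all 8 fits with 1 library left out, with adjusted p up to 0.0223.

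Itga6 (ENSMUSG00000027111, chr2:71745616-71858416, plus strand) encodes the α subunit of laminin receptors. Control libraries 1 to 4 held 718, 699, 644 and 676 CPM and So(d18:1) libraries 1 to 4 held 562, 559.9, 547 and 598 CPM. No So(d18:1) library reached the lowest control. On the log2 scale the change was -0.27 (SE 0.045, adjusted p = 0.000444, edgeR's quasi-likelihood test), a 1.21-fold fall, and adjusted p stayed at or under 0.0038 with any 1 library left out.

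Itga9 (ENSMUSG00000039115, chr9:118606690-118901003, plus strand) encodes the partner of β1 in a receptor for tenascin C, osteopontin and VCAM1. It was at 16.7, 16.1, 21.1 and 17.5 CPM in control libraries 1 to 4 and at 13.7, 13.3, 16.04 and 14.6 CPM in So(d18:1) libraries 1 to 4. The groups did not overlap, though the highest So(d18:1) library lay just under the lowest control. The log2 fold change of -0.31 (SE 0.093, adjusted p = 0.0433, edgeR's quasi-likelihood test) was near the threshold, and the call was lost in 6 of the 8 fits with 1 library left out, with an adjusted p of up to 0.172 without control replicate 3 (edgeR's quasi-likelihood test).

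Among the α subunits that did not pass, Itgax was the lowest relative to control. Itgax (CD11c), the α chain of a β2 integrin of macrophages and dendritic cells, was at 15.9 ± 3.89 and 12.03 ± 1.26 CPM, with a log2 fold change of -0.40 (SE 0.16, adjusted p = 0.14, edgeR's quasi-likelihood test). It passed without control replicate 2 (-0.53, adjusted p = 0.00444), with no filter (adjusted p = 0.00125), with the replicate block (adjusted p = 0.0192) and in DESeq2 (adjusted p = 0.0475). In the other 7 fits with 1 library left out it did not pass, with an adjusted p of up to 0.302, and without control replicate 3 its log2 fold change was -0.24 (edgeR's quasi-likelihood test). Of the 50-base words in its transcripts, 8.02% occur in Itgad, its neighbour and paralog. Itga4, the α chain of the VCAM1 receptor α4β1, was at 844 ± 108 and 808 ± 39.5 CPM with a log2 fold change of -0.062 (interval -0.24 to 0.12). Itga5 and Itgav encode the α chains of receptors for fibronectin and vitronectin, and had log2 fold changes of -0.10 (interval -0.28 to 0.076) and -0.013 (interval -0.13 to 0.10). The α subunits Itgae and Itga2, which serve in receptors for E-cadherin and collagen, stood at 1.14 ± 0.339 and 0.541 ± 0.189 CPM in control and had intervals of -0.58 to 0.70 and -0.41 to 1.17 on the log2 scale. Itga3, of a laminin receptor, was under the filter with 3, 5, 2 and 2 reads in the control and 4, 10, 3 and 5 in the So(d18:1) libraries.

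The β subunits carry the tail that talin and kindlin bind. Of 6 genes, 5 were tested, Itgb7 rose and Itgb3 fell, while the 3 abundant subunits Itgb1, Itgb2 and Itgb5 did not pass. Itgb7 (ENSMUSG00000001281, chr15:102215995-102231944, minus strand) pairs with α4 and αE in leukocytes that home to the gut. It was at 12.4, 10.9, 9.32 and 9.53 CPM in control libraries 1 to 4 and at 15.6, 15.8, 11.8 and 15.1 CPM in So(d18:1) libraries 1 to 4. The groups overlapped, because So(d18:1) replicate 3 lay below control replicate 1 (two-sided exact permutation test of CPM, p = 0.0571). The log2 fold change was 0.47 (SE 0.11, adjusted p = 0.00868, edgeR's quasi-likelihood test), and it passed with any 1 library left out, with an adjusted p of at most 0.0397 (edgeR's quasi-likelihood test).

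Itgb3 (ENSMUSG00000020689, chr11:104608000-104670476, plus strand) pairs with αv on macrophages and osteoclasts, and with αIIb on platelets. Control libraries 1 to 4 held 15.1, 14.3, 19.4 and 17.8 CPM and So(d18:1) libraries 1 to 4 held 11.2, 9.14, 11.1 and 11.8 CPM. Every So(d18:1) library was below every control library. Its log2 fold change was -0.62 (SE 0.11, adjusted p = 0.000676, edgeR's quasi-likelihood test), a 1.54-fold fall, and the call held with any 1 library left out, the weakest adjusted p being 0.0048 without So(d18:1) replicate 2.

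Itgb2 encodes the β2 chain that LFA-1 and Mac-1 share, and its fold change was the closest to 0 of the 32 genes, with a sign that changed with the scaling. Itgb2 was at 477 ± 9.83 and 477 ± 12.98 CPM, and the 95% interval of its log2 fold change ran from -0.084 to 0.084. For Itgb1, at 498 ± 10.6 and 504 ± 11.7 CPM, the log2 fold change was 0.019 (interval -0.064 to 0.10), and for Itgb5, at 728 ± 44.4 and 742 ± 40.02 CPM, it was 0.026 (interval -0.077 to 0.13). Itgb8, whose integrin αvβ8 activates TGF-β, was under the filter with 0, 0, 4 and 1 reads in the control and 7, 2, 1 and 2 in the So(d18:1) libraries.

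The 5 adaptors join β tails to actin and signalling proteins, and none of them passed. Fermt3 encodes the kindlin of blood cells (ENSMUSG00000024965, chr19:6998958-7019469, minus strand). It was at 377, 370.1, 378 and 393 CPM in control libraries 1 to 4 and at 394, 398, 398 and 399.8 CPM in So(d18:1) libraries 1 to 4. The groups did not overlap, by a margin smaller than the SD of either group, and the log2 fold change was 0.066 (SE 0.039, adjusted p = 0.339, edgeR's quasi-likelihood test). Tln1, for talin, was at 796 ± 23.1 and 805 ± 24.5 CPM, a log2 fold change of 0.017 (interval -0.069 to 0.10). The focal adhesion scaffolds Pxn and Zyx had log2 fold changes of 0.008 (interval -0.077 to 0.093) and 0.036 (interval -0.058 to 0.13). Vcl, for vinculin, was at 22.95 ± 2.48 and 20.5 ± 0.997 CPM with a log2 fold change of -0.17 (interval -0.33 to -0.004), and 25.5% of its exonic bases lie opposite Ap3m1, a gene at 70.04 to 80.3 CPM.

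Tetraspanins gather integrins into membrane domains. Cd81 (ENSMUSG00000037706, chr7:143052739-143067934, plus strand), a tetraspanin of most leukocytes that also joins the B cell co-receptor, was the only one of the 4 genes in this group to pass. It was at 63.5, 60.4, 65.01 and 62.7 CPM in control libraries 1 to 4 and at 81.1, 80.8, 84.8 and 84.9 CPM in So(d18:1) libraries 1 to 4. The libraries within each group lay close together, and every So(d18:1) library lay above every control library. This was a log2 fold change of 0.40 (SE 0.046, adjusted p = 6.92e-06, edgeR's quasi-likelihood test), a 1.32-fold rise that held with any 1 library left out, with adjusted p up to 6.73e-05. Cd9, a tetraspanin of macrophages and platelets, was at 76.1 ± 9.33 and 84.5 ± 4.69 CPM with a log2 fold change of 0.15 (SE 0.074, adjusted p = 0.231, edgeR's quasi-likelihood test), and passed only without control replicate 3 among the fits with 1 library left out (0.23, adjusted p = 0.0135). Cd151, a partner of laminin-binding integrins, had a log2 fold change of 0.081 (interval -0.037 to 0.20). Cd47, the signal against phagocytosis and a receptor of thrombospondin, was at 279.9 ± 17.7 and 297 ± 6.37 CPM with one of 0.085 (interval -0.011 to 0.18).

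**Figure D2:**
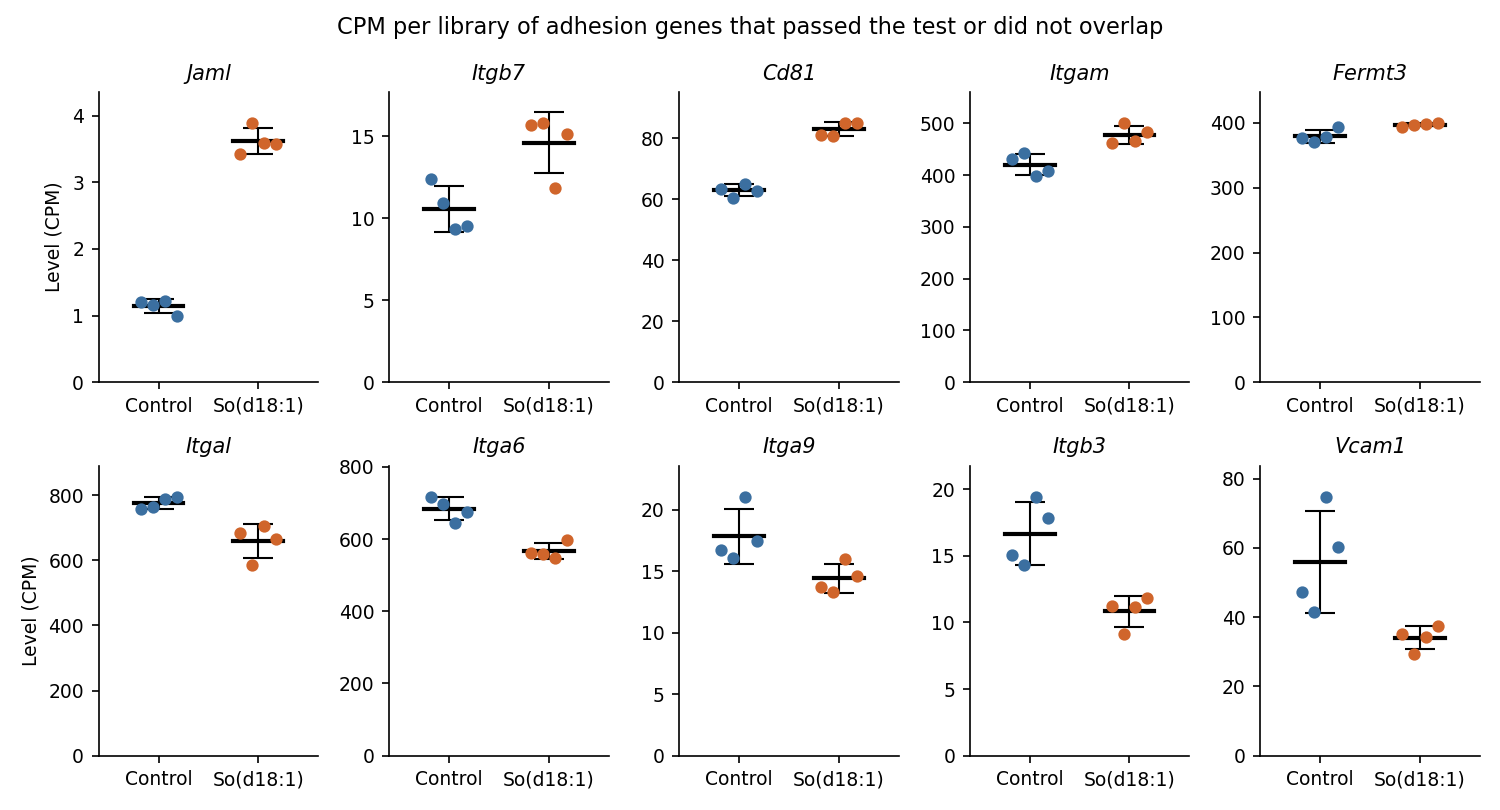
CPM in each of the 8 libraries for the 10 genes that passed the test or whose groups did not overlap, with the mean (line) and SD (bar) of 4 libraries per group, from the highest to the lowest log2 fold change and with every axis starting at 0. The groups separate in 9 panels and overlap in that of Itgb7, and the control libraries of Vcam1 span 41.5 to 74.8 CPM.

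Over the 32 tested genes, the CPM of the groups did not overlap in 9, with So(d18:1) above in 4 (Jaml, Cd81, Itgam, Fermt3) and below in 5 (Itga6, Itgal, Itga9, Itgb3, Vcam1). Among all tested genes, 7.14% lay above without overlap and 7.87% below. Each of the 9 has a two-sided exact permutation p of 0.0286, which is the smallest that 4 against 4 libraries allow.

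Levels between genes were compared per length, as RPKM, the CPM divided by the gene length in kilobases. The β subunits led the control libraries: Itgb5 had a mean of 205 ± 12.5 RPKM (n = 4), Itgb2 one of 156 ± 3.22 and Itgb1 one of 122 ± 2.60. Among the α subunits, Itgal was the highest at 118 ± 2.72 RPKM, and its libraries overlapped those of Itgb1. Itgam followed at 83.7 ± 4.05 RPKM and overlapped Tln1 at 81.2 ± 2.36, with Itga6 below at 74.8 ± 3.48 and apart from both. The level of Itgam is uncertain because of its overlap with Gm49368, so its rank against Itgal is uncertain as well. In this order the genes that passed the test stood far apart: Itgal, Itgam and Itga6 were among the 7 highest, Cd81 was at 21.8 ± 0.669 RPKM, Itgb7 at 3.81 ± 0.511, Itgb3 at 2.82 ± 0.404 and Itga9 at 2.32 ± 0.289. The control range of Itgb7 overlapped that of Icam2, and those of Itgb3 and Vcl overlapped as well. Jaml, at 0.368 ± 0.0339 RPKM in control and 1.16 ± 0.0633 in So(d18:1) libraries, was the 30th of the 35 genes in control, above Itgae, with which it overlapped there. Esam, Itga2, Itga3 and Itgb8 had means under 0.1 RPKM in control libraries.

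**Figure D3:**
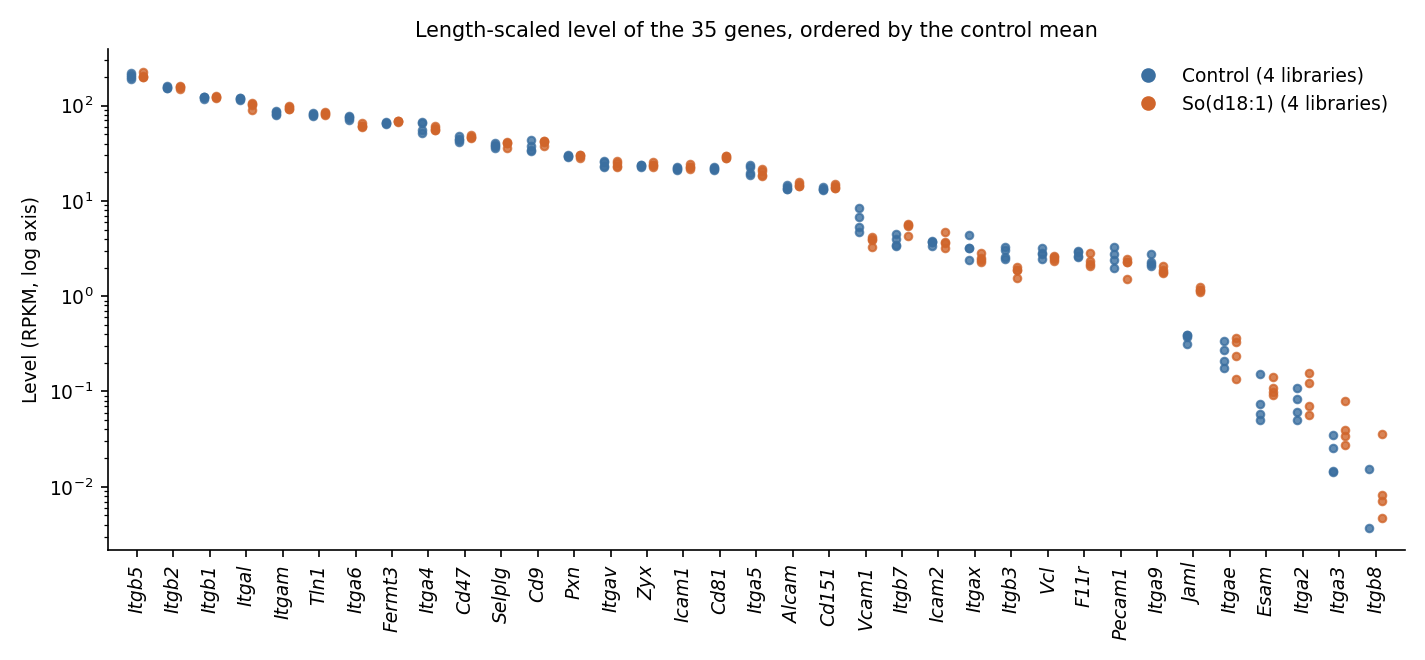
Level of the 35 genes in RPKM on a log axis, 1 point per library, ordered by the control mean, with control in blue and So(d18:1) in orange. Values of 0 (Itgb8 in control libraries 1 and 2) cannot be drawn on the log axis; the levels run from 205 RPKM for Itgb5 down to 0.00474 RPKM for Itgb8.

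Pairs of subunits were set side by side as ratios of RPKM within a library, given as a description of genes whose own tests stand above. The α chains of LFA-1 and Mac-1, Itgal over Itgam, stood at 1.32 to 1.51 in control and at 0.895 to 1.16 in So(d18:1) libraries, with the ratio under 1 in So(d18:1) replicate 2 alone. The αv partners Itgb3 over Itgb5 stood at 0.0126 to 0.0158 and 0.0077 to 0.00941. The tetraspanins Cd81 over Cd9 stood at 0.522 to 0.641 and 0.673 to 0.741. These 3 ratios did not overlap between the groups. The α4 partners Itgb7 over Itgb1, at 0.0281 to 0.0365 and 0.0346 to 0.0472, and Itgam over Itgax, at 18.2 to 36.9 and 32.0 to 44.1, did overlap. The overlap of Itgam with Gm49368 leaves its level uncertain. The size of both ratios that hold Itgam is therefore uncertain, as is the side of 1 on which Itgal over Itgam lies.

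The control libraries fell into a pair of pairs in these genes. Control replicates 1 and 2 lay both above or both below replicates 3 and 4 in 25 of the 32 tested genes (78.1%), beside 7464 of all 14514 tested genes (51.4%). No label gives a batch. Against the control mean of log2 CPM, Vcam1 stood at -0.21 and -0.39 in control replicates 1 and 2 and at 0.46 and 0.15 in replicates 3 and 4, and Itgb3 at -0.13 and -0.21 and at 0.23 and 0.11. Itga4 was split the other way, at 0.15 and 0.17 and at -0.21 and -0.10. The fits were therefore repeated with either pair of control libraries left out, an alternative chosen after seeing the data, by edgeR's quasi-likelihood test as before. Without controls 1 and 2, 14 genes passed (5 higher, 9 lower), where 12.0% of all tested genes did, and without controls 3 and 4, 8 passed (3 higher, 5 lower), where 5.82% did. Jaml, Cd81, Itga6, Itgal and Itgb3 passed in both. Without controls 3 and 4, Itgam (0.13, adjusted p = 0.138), Itga9 (-0.19, adjusted p = 0.339) and Itgb7 (0.33, adjusted p = 0.125) did not pass, while Cd9 (0.29, adjusted p = 0.00191) did. Itgax, Pecam1, Vcl and Cd47 passed without controls 1 and 2, at -0.61, -0.52, -0.27 and 0.15 on the log2 scale. Vcam1 passed in both, at -0.99 (adjusted p = 2.71e-05) and -0.38 (adjusted p = 0.00661). Itga4 moved from 0.10 without controls 1 and 2 to -0.21 without controls 3 and 4 (adjusted p = 0.0098), and Itga5 from -0.24 (adjusted p = 0.00999) to 0.049, so the direction of either gene rested on which control libraries were used.

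**Figure D4:**
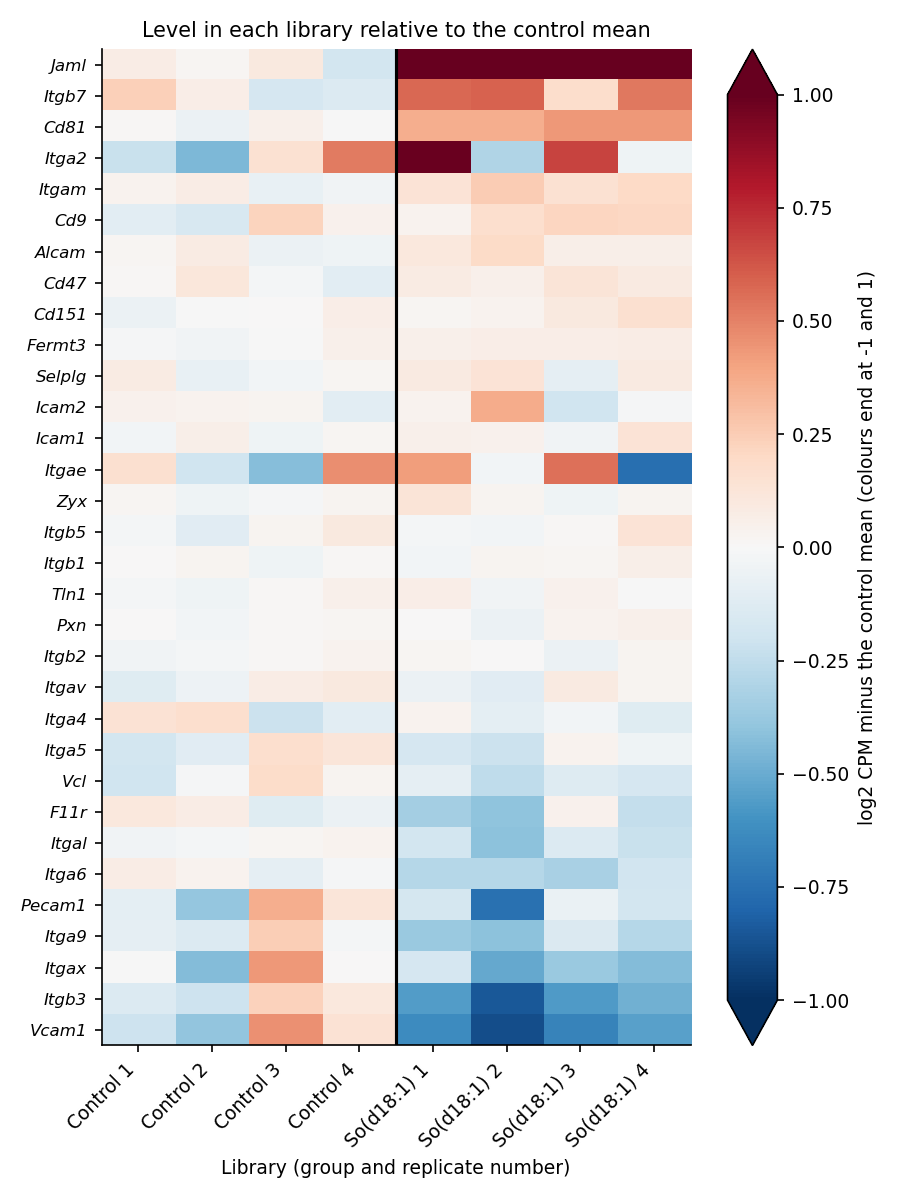
Log2 CPM of the 32 tested genes in each of the 8 libraries minus the mean of the 4 control libraries, ordered by the mean of the So(d18:1) libraries, with red above and blue below that mean and colours ending at -1 and 1. Jaml, at 1.51 to 1.70 in the So(d18:1) libraries, leads the plot and Vcam1, at -0.89 to -0.54, closes it; among the control columns, replicates 1 and 2 often share one colour and replicates 3 and 4 the other.

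The other genes of the adhesion machinery, listed by role, gave 15 that passed among 87 tested of 111, with 3 higher and 12 lower, beside the 8.94% of all tested genes. Their 87 log2 fold changes had a median of -0.055. Among the other integrin subunits, 2 of 5 tested passed. Itga1, the α subunit of a collagen receptor, was at 6.50 ± 0.618 and 17.1 ± 0.962 CPM with a log2 fold change of 1.40 (SE 0.10, adjusted p = 5.16e-09, edgeR's quasi-likelihood test), and passed in all 8 fits with 1 library left out. Itgad, a β2 partner next to Itgax, fell by 0.66 on the log2 scale (adjusted p = 0.0368, edgeR's quasi-likelihood test) at 3.85 ± 0.949 CPM in control, lost the call in 6 of the 8 fits, and shares 19.7% of its 50-base words with other genes, Itgax among them. CXADR is the ligand of JAML, and Cxadr was near the filter, with 12, 10, 20 and 15 reads in the control and 9, 8, 7 and 11 in the So(d18:1) libraries and a log2 fold change of -0.55 (interval -1.30 to 0.19).

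Of the other JAM, immunoglobulin and nectin proteins, 3 of 12 tested passed: Cadm1 rose (0.39, adjusted p = 4.09e-05), and Cd84, a SLAM family receptor (-0.20, adjusted p = 0.0019), and Sirpa fell. Sirpa encodes the receptor of CD47 on macrophages, and stood at 1526 ± 10.97 and 1283 ± 8.19 CPM, with a log2 fold change of -0.25 (SE 0.039, adjusted p = 0.000211, edgeR's quasi-likelihood test). No gene of the 6 tested among the selectins, their ligands and CD44 passed. Of 10 other tetraspanins 1 passed, Cd53, which fell (-0.20, adjusted p = 0.00197, edgeR's quasi-likelihood test). Among 15 tested genes of integrin activation, 5 had log2 fold changes above 0 and 10 below. Of the 15, 2 passed and both fell, where 5.07% of all tested genes passed and were lower. These were Rasgrp2, an exchange factor for RAP1 that takes part in integrin activation in platelets and leukocytes (-0.40, adjusted p = 0.00251), and Rapgef3, an exchange factor for RAP1 driven by cyclic AMP (-0.99, adjusted p = 0.0254).

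Of 27 tested focal adhesion and signalling genes, 11 had log2 fold changes above 0 and 16 below, with a median of -0.041. Of the 27, 5 passed and all 5 fell, where 5.07% of all tested genes passed and were lower. They were the Src family kinases Lyn (-0.19, adjusted p = 0.00428) and Fgr (-0.32, adjusted p = 0.023), the tensins Tns1 (-0.54, adjusted p = 0.00378) and Tns3 (-0.38, adjusted p = 1.62e-05), and the actin cross-linker Actn1 (-0.22, adjusted p = 0.0323). Of the 12 tested matrix ligands, Thbs1 rose and Fn1 fell. Thbs1, for thrombospondin, a ligand of CD47 and integrins, stood at 4188 ± 59.8 and 5806 ± 277 CPM, with a log2 fold change of 0.47 (SE 0.044, adjusted p = 3.69e-07, edgeR's quasi-likelihood test). Fn1, for fibronectin, the ligand of α4β1 and α5β1, stood at 71.3 ± 9.80 and 54.9 ± 3.99 CPM with a log2 fold change of -0.38 (SE 0.089, adjusted p = 0.0216, edgeR's quasi-likelihood test). Spp1, for osteopontin, a ligand of αv and α9 integrins, had a log2 fold change of -0.15 (interval -0.41 to 0.11) and did not pass. With 1 library left out, Rapgef3, Fgr, Actn1 and Fn1 lost their calls in 3, 5, 6 and 4 of 8 fits. Without controls 3 and 4, Rapgef3 (-0.67, adjusted p = 0.216), Fgr (-0.20, adjusted p = 0.217), Actn1 (-0.091, adjusted p = 0.363) and Itgad (-0.36, adjusted p = 0.428) did not pass, and Itgad did not pass in limma-voom either (adjusted p = 0.0619).

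**Figure D5:**
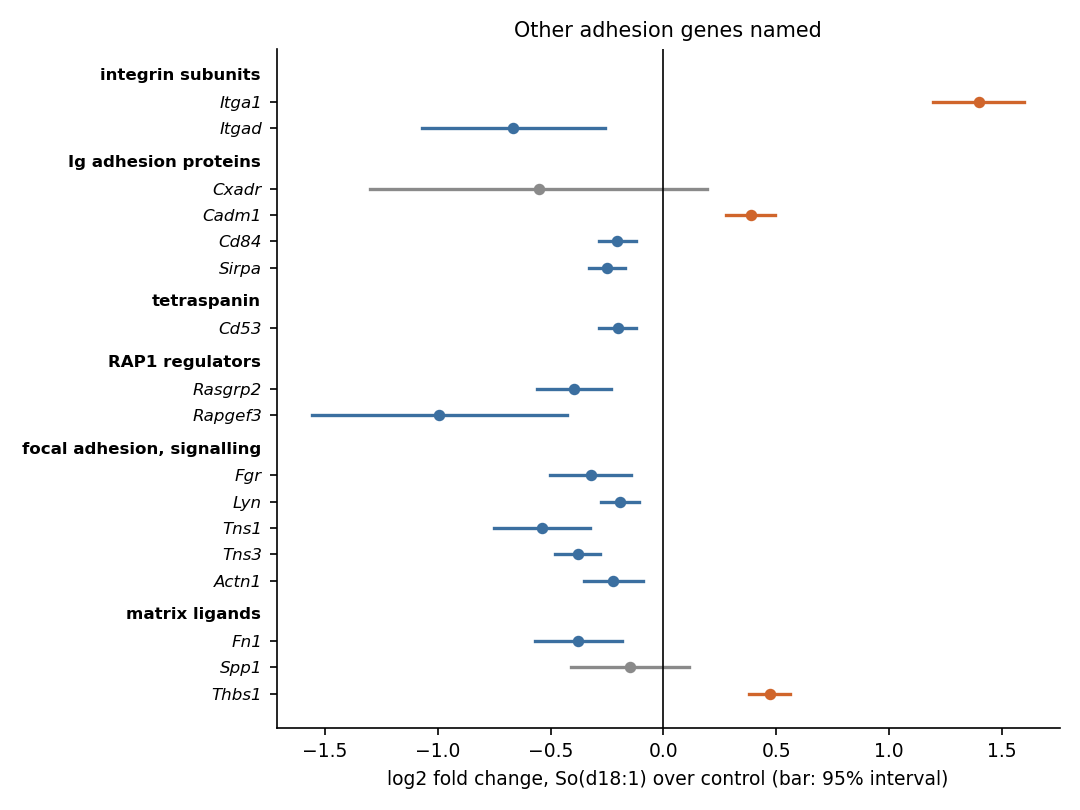
Log2 fold change with its 95% interval for the 15 other adhesion genes that passed and for Cxadr and Spp1, by role, with orange for higher, blue for lower and grey for not passed. Itga1 at 1.40 is the farthest to the right, and 12 of the genes that passed lie to the left of 0.

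Several of these genes are also used by other blood cells, and markers of such cells moved with the treatment. The defining macrophage markers Csf1r and Adgre1 stood at 5569.5 to 6305 and 2129 to 2312 CPM over the 8 libraries. The whole macrophage list was at a summed 30418 to 32917 CPM in control and 26215 to 31215 CPM in So(d18:1) libraries. Of its 8 genes, 7 had log2 fold changes below 0 and 1 above, and 2 passed, Cd68 (-0.22) and Mertk (-0.38). The neutrophil list summed to 1125 to 1431 CPM in control and 873 to 979.7 CPM in So(d18:1) libraries, which did not overlap (two-sided exact permutation test, p = 0.0286). All 7 of its genes had log2 fold changes below 0, and 5 passed, S100a8, S100a9, Csf3r, Elane and Mpo, lower by 0.28 to 0.51. Neutrophils carry Itgam and Itgal, and the part of these values in either result was not tested. The whole platelet list summed to 207 to 234 CPM in control and 335 to 410 CPM in So(d18:1) libraries. These sums did not overlap and were higher with So(d18:1) (two-sided exact permutation test, p = 0.0286). Of its 5 tested genes, 1 had a log2 fold change above 0 and 4 below, and only Pf4 passed, which rose (0.76). Without Pf4 that list summed to 5.58 to 7.76 CPM in control and 4.27 to 5.04 CPM in So(d18:1) libraries (two-sided exact permutation test, p = 0.0286), beside the fall of Itgb3, and its part in that fall was not tested. The T and NK cell list summed to 20.5 to 25.6 CPM in control and 13.8 to 18.8 CPM in So(d18:1) libraries, nearly all of it Cd4, which fell (-0.42). The defining Cd3e had 2 reads in 1 control library and 0 in the other 7. In the B cell list, at 16.5 to 19.4 and 13.3 to 17.1 CPM, all 5 tested genes had log2 fold changes below 0. Only Pax5 (-1.26) passed the adjusted threshold, while 4 of the 5 passed that of the study's methods. The dendritic cell (7.55 to 8.80 and 7.80 to 8.75 CPM), endothelial (6.65 to 10.2 and 5.66 to 8.28 CPM) and fibroblast lists (5.97 to 8.77 and 5.28 to 7.37 CPM) overlapped between the groups and held no gene that passed. No marker was at 0 in all 8 libraries.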

How the data were processed

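Counts per gene were available for 8 libraries of BMDM, 4 control and 4 So(d18:1). The authors deposited whole-number counts, not normalized. Per the submitters' processing notes and the study's methods, reads were trimmed with Trim Galore 0.6.7, aligned with HISAT2 2.2.1 to mm10 (GRCm38) and counted with featureCounts 2.0.1, and the strand setting is not given in the sources used here. Symbols, positions and overlaps came from GENCODE M21, which named 52081 of 55357 identifiers, and the identifiers left without a name stayed in the fit and carried 0.169% to 0.325% of the counts.

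The 35 genes, the other adhesion genes (111 matched), the cell type markers and the tests were chosen with earlier results of these data known. The whole table was fitted in R 4.3.3 with edgeR 4.0.16 (filterByExpr, TMM, robust quasi-likelihood F test), which tested 14514 genes, and p-values were adjusted over all of them by the Benjamini-Hochberg method. The SE was derived from the F statistic (size of the log2 fold change over the root of F), and intervals are 95% intervals on the log2 scale. CPM and RPKM used TMM-scaled totals, log2 CPM a prior count of 2, and RPKM the gene lengths of the table. CPM of single genes were compared by a two-sided exact permutation test. As alternatives, TMM (factors 0.989 to 1.01) was replaced by the size factors of DESeq2, by upper quartiles or by library size, the filter was dropped or set to 10 counts per library, the replicate number entered as a block, and the test was exchanged for DESeq2 1.42.0, limma-voom (limma 3.58.1) or edgeR's likelihood ratio test. Each library was also left out in turn. The script was tested on simulated data. Genes with an adjusted p under 0.05 or without overlap between the groups are given by library, and other genes by means, intervals or counts. Promoter windows were taken from RefSeq (GRCm38.p6), and figures were drawn with matplotlib 3.10.9.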

Additional observations from a re-analysis of the deposited data

Results flagged for a closer look

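In a group of 4 libraries, a gene was singled out when the highest or lowest log2 CPM stood apart from the nearest other by a share of the group's range above Dixon's 95% critical value for 4 values. Of 98 groups examined, over 49 genes, 6 were singled out, and chance gives about 1 in 20, or 4.9. Among the 35 genes, Pecam1 in So(d18:1) libraries had a gap of 0.831 of the range, with replicate 2 at 3.26 log2 CPM and the others at 3.83 to 3.94. Icam2 in control libraries had a gap of 0.887, with replicate 4 at 2.71 log2 CPM and the others at 2.84 to 2.86. Itgb7 in So(d18:1) libraries had a gap of 0.844, with replicate 3 at 3.57 log2 CPM and the others at 3.92 to 3.99. Without that library the log2 fold change of Itgb7 was 0.56, the highest of the 8 fits with 1 library left out.

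Of the other adhesion genes, Cadm1 in control libraries had a gap of 0.881 (replicate 4 at 5.60 log2 CPM, the others at 5.71 to 5.73), Cd53 in So(d18:1) libraries one of 0.9 (replicate 1 at 8.36, the others at 8.40), and Rapgef3 in So(d18:1) libraries one of 0.841 (replicate 2 at -0.22, the others at 0.49 to 0.63).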

How the results depend on the processing

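Of the 8 genes that passed, 6 did so in all 8 fits with 1 library left out, the exceptions being Itga9 and Itgam. Under the 3 other scalings, both other filters, the replicate block, DESeq2, limma-voom and the likelihood ratio test, between 8 and 11 of the 35 genes passed. Of all tested genes, 6.14% (no filter) to 12.3% (replicate block) passed in those fits. With 1 library left out, 6 to 10 passed (3 to 5 higher, 3 to 6 lower). Of all tested genes, 5.49% (without So(d18:1) replicate 2) to 9.37% (without control replicate 2) passed in those fits. By the threshold of the study's methods 1 to 3 passed, beside 471 of 14622 to 668 of 14802 tested genes. Of the other adhesion genes, 11 to 18 passed the adjusted one. The median log2 fold change lay between 0.00102 and 0.0344. The two-sided exact permutation test of CPM gave a p under 0.05 in 4 to 13 of the 35 genes. That is not a count of groups without overlap, since leaving out a library cannot make separate groups overlap. The single library behind the 1 was control replicate 3, behind the 4 So(d18:1) replicate 2, and behind the 13 control replicate 2. With control replicates 1 and 2 left out, 14 genes passed, 9 of them lower, where 12.0% of all tested genes did. In that fit 5 passed the threshold of the study's methods, beside 811 of 15056 tested genes. With control replicates 3 and 4 left out, 1 passed that threshold, beside 428 of 14865 tested genes. The cause of these shifts was not tested.

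Whether the replicate numbers pair the samples is not given in the sources used here. Deviations of same-numbered libraries from their group means correlated at -0.0035, 0.10, 0.033 and 0.0091. With the replicate number as a block, 11 of the 35 genes passed, 4 higher and 7 lower, where 12.3% of all tested genes did. Only replicate 2 of the control libraries correlated best with its own number, as a hint from the data.

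Changes of sign were found in genes near 0. Itgb2 was at -0.0023 with DESeq2's size factors, -0.012 with upper quartile scaling, -0.0061 with 10 counts in every library, -0.00023 with the replicate block, -0.0022 in DESeq2, -2.6e-05 in limma-voom and -0.023 without controls 1 and 2. Itgae was at -0.0086 in limma-voom, and Pxn at -0.0042 with upper quartile scaling. Without controls 1 and 2, Itga4 was at 0.10, Itgb5 at -0.035, Tln1 at -0.013 and Pxn at -0.0050, and without controls 3 and 4, Itga5 was at 0.049 and Itgav at 0.073. With 1 library left out, log2 fold changes ran from -0.053 to 0.15 for Icam2, -0.13 to 0.31 for Itgae, -0.049 to 0.021 for Itgav, -0.010 to 0.022 for Itgb2, -0.012 to 0.062 for Itgb5 and -0.0057 to 0.030 for Pxn. Low counts left Esam, Itga3 and Itgb8 untested.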
